A study of Mus musculus with 4 samples.

Results

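Of the 12584 genes in the deposited count tables, 65 code for collagens, matrix metalloproteinases, their tissue inhibitors, lysyl oxidases or proteases of the ADAM and ADAMTS families. They were chosen by symbol alone, from the patterns Col, Mmp, Timp, Lox, Loxl, Adam and Adamts followed by a number, with Mmp9 left out. The rule reads symbols and no measured value, but it was set with earlier results of these data known, and Mmp9 is given below with the other proteases. They comprised 25 collagens, 13 matrix metalloproteinases, 3 inhibitors, 4 lysyl oxidases, 13 ADAM and 7 ADAMTS proteases. Over all cells 46 of them had at least 1000 unique molecular identifiers (UMIs, each a counted molecule) and 19 had fewer, with a range of 173 to 207175 UMIs. Adam11, Adam33, Adamts5, Col11a2, Col20a1, Mmp23 and Mmp28, with 173 to 975 UMIs, fell outside the rule for describing single genes, and where one is named below it was chosen after its values were seen.

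Single-cell RNA sequencing had been performed on live CD45+ cells of mouse melanomas. The line, YUMM1.7-OVA RTT, is BRAF-mutant, carries ovalbumin, and was kept in dabrafenib, a BRAF inhibitor to which it is resistant. The tumours grew under the skin of young adult Rag2-/- mice, which have no T or B cells of their own, and every group received OT-1 CD8+ T cells on day 7 and was collected on day 10, at 72 h. CTRL tumours carried an mCherry control vector. IRF3/7 tumours came from cells transduced with SFFV-IRF3-mCherry and SFFV-IRF7-PuroR vectors, in which a viral promoter drives the interferon regulatory factors Irf3 and Irf7, and the sorted cells were a bulk population rather than 1 clone. COX2i tumours grew from mCherry cells under celecoxib, an inhibitor of prostaglandin synthesis by COX2. COX2i + 5-AZA tumours received celecoxib and 5-azacitidine, a DNA methyltransferase inhibitor. Each group was 1 library made from 3 pooled tumours, so there were no replicates, no test between groups was possible, and no p-value is given. Levels are UMIs of a gene per 1000000 UMIs of the same cells (CPM), with exact 95% Poisson intervals, and ratios have exact conditional 95% intervals. These intervals cover counting error only, not the variation between tumours. Since probe pairs differ between genes in this assay, levels were compared between cells and libraries and not between genes.

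The 4 libraries held 6329 to 10032 cells and 26356819 to 78722763 UMIs, the fewest of both in IRF3/7, where monocytes and macrophages had a median of 3148 UMIs per cell against 6259.5 to 7611.5 elsewhere. Between 2005 and 2816 cells per library shared their droplet barcode with a cell of another library, and 0 shared the full barcode, which includes the probe barcode of the sample. Doublets were not called. Cell classes were those of the deposited annotation. In the class named Myofibrobl, Irf7 stood at 14910 CPM in IRF3/7 against 8.2 in CTRL and Irf3 at 584 against 31.2, while in monocytes and macrophages Irf7 stood at 3170 against 69.3 and Irf3 at 44.6 against 43.0 CPM.

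Collagens are secreted as triple helices, built in the endoplasmic reticulum by hydroxylases and chaperones, trimmed outside the cell and cross-linked by lysyl oxidases. Matrix metalloproteinases cut collagen, elastin and other matrix proteins, and TIMPs block their active site. ADAM proteases release cell-surface proteins such as cytokines and growth factor precursors, and ADAMTS proteases are secreted enzymes that trim procollagen or cut proteoglycans. In skin and in tumours fibroblasts are the textbook source of fibrillar collagen, whereas macrophages and neutrophils supply several of the metalloproteinases.

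Mmp13, Mmp12 and Mmp8, which differed strongly between libraries in myeloid cells, lie near each other in the genome. Mmp13, a collagenase (chr9:7272514-7283331), Mmp12, the macrophage metalloelastase (chr9:7344381-7369499), Mmp3, a stromelysin (chr9:7445822-7455975), Mmp8, the neutrophil collagenase (chr9:7558456-7568485), and Mmp27 (chr9:7571396-7581885) are all on the plus strand of mouse build mm10, 5 members within 309.4 kb. The RefSeq start-site windows of Mmp13, Mmp12 and Mmp8 (GRCm38.p6, plus strand, 250 bases before and 50 after each start) are shown because much of the account of myeloid cells below is about these genes. Mmp13 spans chr9:7272264-7272563, the 2 windows of Mmp12 span chr9:7344147-7344446 and chr9:7347124-7347423, and Mmp8 spans chr9:7558179-7558478. Capitals mark an AP-1 motif, TGAGTCA or TGACTCA, searched on both strands.

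Mmp13: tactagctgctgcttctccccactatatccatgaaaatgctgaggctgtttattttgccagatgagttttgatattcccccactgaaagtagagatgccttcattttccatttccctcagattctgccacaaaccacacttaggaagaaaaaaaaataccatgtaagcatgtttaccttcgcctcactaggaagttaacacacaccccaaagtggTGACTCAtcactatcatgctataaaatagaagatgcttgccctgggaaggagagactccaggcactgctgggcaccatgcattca
Mmp12 window 1: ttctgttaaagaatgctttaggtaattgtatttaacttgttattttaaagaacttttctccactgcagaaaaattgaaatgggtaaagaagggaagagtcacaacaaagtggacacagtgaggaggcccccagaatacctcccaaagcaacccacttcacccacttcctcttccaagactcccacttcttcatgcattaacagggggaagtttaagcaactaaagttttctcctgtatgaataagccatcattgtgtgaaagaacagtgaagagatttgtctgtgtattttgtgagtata
Mmp12 window 2: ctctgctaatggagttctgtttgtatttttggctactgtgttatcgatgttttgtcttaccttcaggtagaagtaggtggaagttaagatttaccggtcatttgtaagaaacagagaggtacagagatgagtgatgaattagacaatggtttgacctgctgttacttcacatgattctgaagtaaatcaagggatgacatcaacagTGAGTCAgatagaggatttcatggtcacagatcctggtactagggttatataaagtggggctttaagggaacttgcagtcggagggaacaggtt
Mmp8: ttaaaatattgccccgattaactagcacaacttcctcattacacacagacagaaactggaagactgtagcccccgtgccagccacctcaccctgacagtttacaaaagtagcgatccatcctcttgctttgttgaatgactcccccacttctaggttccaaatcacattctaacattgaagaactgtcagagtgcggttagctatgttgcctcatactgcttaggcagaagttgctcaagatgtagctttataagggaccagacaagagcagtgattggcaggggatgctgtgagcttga

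The AP-1 letters lay 35 bases before the start of Mmp13 and 44 bases before the second start of Mmp12, and were not found in the first Mmp12 window or in Mmp8. Among all RefSeq windows of that length 1709 of 32851 (5.2%) held the motif. Of the 65 members 42 had a window, 48 windows in all, and 5 of these held it (10.4%), in Adam19, Col6a1, Mmp12, Mmp13 and Mmp3. A match describes letters in these windows and was not tested as a binding site.

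For 35 of the 65 members the class named Myofibrobl had the highest mean level, taken over libraries with at least 10 cells of a class. These were 20 of 25 collagens, 6 of 13 metalloproteinases, 2 of 3 TIMPs, 3 of 4 lysyl oxidases, 3 of 7 ADAMTS and 1 of 13 ADAM genes. The other 30 were spread over mast cells (4), TAM_C1q (4), Ctsk_Macro (3), DC3 (3, the CCR7+ dendritic cells), neutrophils (3), TAM_Spp1 (3) and 8 further classes. How many of all genes had their highest mean in Myofibrobl was not counted. The map of class means shows the collagens and lysyl oxidases concentrated in 1 column and the ADAM genes spread over the myeloid columns.

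**Figure D1:**
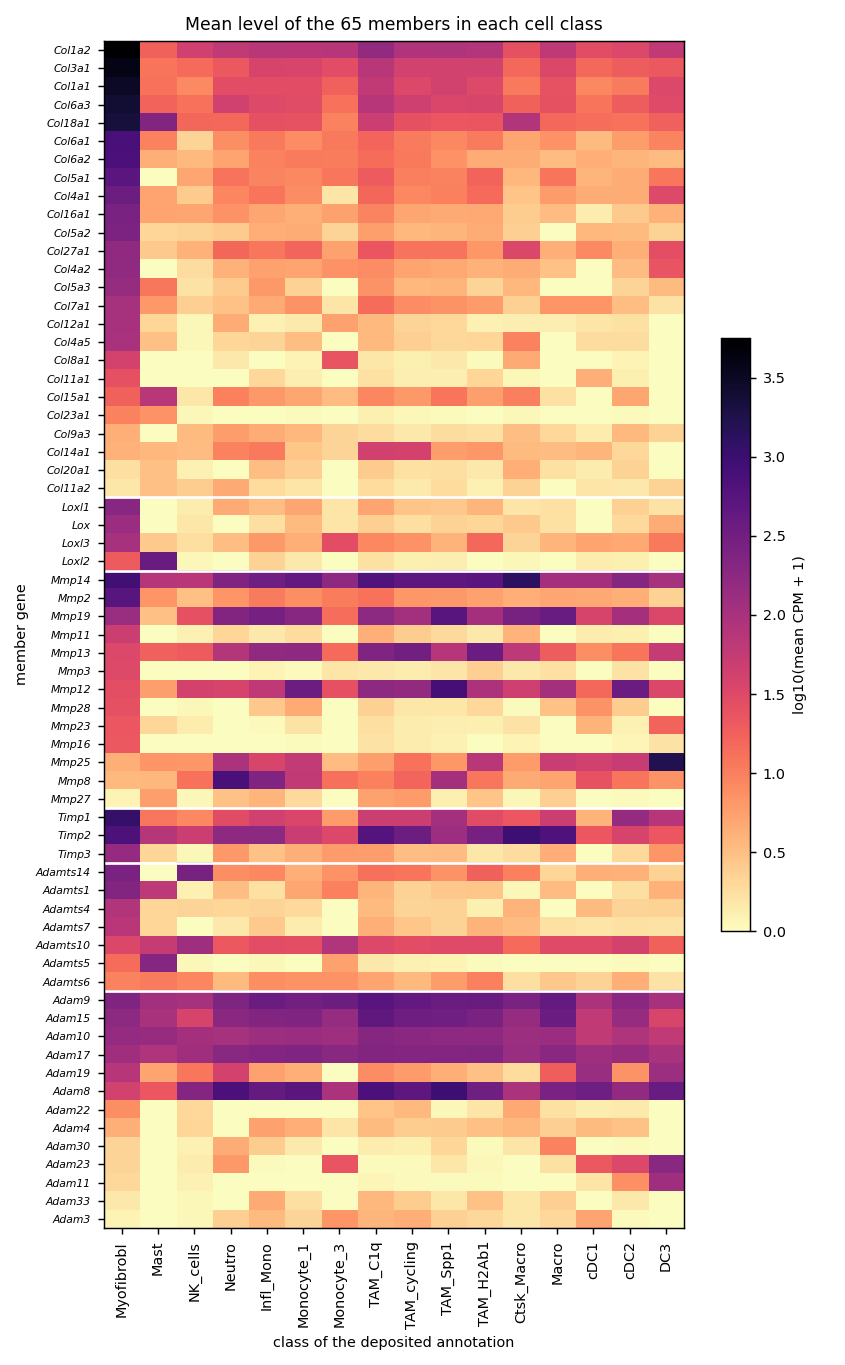
Mean level of each of the 65 members (rows, grouped by family) in each class of the deposited annotation (columns), as log10 of mean CPM + 1 over libraries with at least 10 cells of the class. Collagens are darkest in Myofibrobl, where 20 of 25 had their highest mean.

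Myofibrobl held 554 cells in CTRL, 172 in IRF3/7, 913 in COX2i and 160 in COX2i + 5-AZA, or 6.19%, 2.72%, 10.0% and 1.59% of cells, although the sort was for CD45. Col1a2, a chain of type I collagen, had a UMI in 89.0% to 99.1% of these cells and the fibroblast receptor Pdgfra in 78.2% to 91.9%. Ptprc, which codes for CD45, had a UMI in 16.8% to 22.1%. The 2 contractile genes that define a myofibroblast were low: Acta2 stood at 9.24 to 20.4 CPM with a UMI in 1.74% to 10.6% of cells, and Tagln at 4.77 to 11.1 CPM. Of 11 fibroblast markers 10 had values, summing to 710, 1623, 783 and 1021 CPM in the order CTRL, IRF3/7, COX2i, COX2i + 5-AZA. Of these, Pdpn was lower in Myofibrobl than in monocytes and macrophages in CTRL (144 against 394 CPM) and COX2i (124 against 409). The same held in COX2i + 5-AZA (175 against 292) but not in IRF3/7 (586 against 15.1). Pi16 was lower in all 4 libraries (5.33 to 7.81 against 15.6 to 46.8). Fap was higher in Myofibrobl except in IRF3/7 (4.46 against 4.48), and the other markers with values were higher there in every library. Of 11 melanocyte and melanoma markers 6 had values (693 to 938 CPM, nearly all Axl), and Mlana, Tyr, Tyrp1, Dct and Sox10 had none in the tables used here. Irf7 had a UMI in 98.8% of the Myofibrobl cells of IRF3/7, against 7.58% in CTRL, 10.3% in COX2i and 32.5% in COX2i + 5-AZA, and the counts do not separate the vector's Irf7 from the cell's own. The class is called by its deposited name, and its split into cancer and stromal cells was not tested.

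Within each library, 49 of the 65 members had at least 50 UMIs over Myofibrobl together with monocytes and macrophages. Of these, 33 were at least 2-fold higher in Myofibrobl in all 4 libraries (17 of 19 collagens, 5 of 11 metalloproteinases, 2 of 3 TIMPs, all 4 lysyl oxidases, 4 of 6 ADAMTS and 1 of 6 ADAM genes), against 16.1% of all genes. Adam8, Mmp12 and Mmp8 were at least 2-fold lower there in all 4, against 12.7% of all genes. The annotation was built by clustering the expression of these cells, and which members entered it is not known here, so the counts describe the classes and test nothing.

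Outside Myofibrobl the 33 genes were found at low levels that differed between libraries. Their median level in monocytes and macrophages was 4.07% of the Myofibrobl level in CTRL, 0.75% in IRF3/7, 2.04% in COX2i and 0.666% in COX2i + 5-AZA. The gene with the highest percentage was Col27a1 in CTRL (21.6%), Mmp28 in IRF3/7 (12.1%), Timp1 in COX2i (10.4%) and Loxl3 in COX2i + 5-AZA (3.52%). The plot of these percentages shows the bulk of the 33 lower in IRF3/7 and COX2i + 5-AZA than in CTRL and COX2i, with overlapping upper ends and lowest values of 0.439% (Col3a1), 0.319% (Adamts1), 2.3% (Col1a2) and 1.25% (Col8a1). Myofibrobl cells gave 14.2%, 17%, 14.9% and 3.69% of all UMIs in the order CTRL, IRF3/7, COX2i, COX2i + 5-AZA, and the part of that share in these percentages was not tested.

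**Figure D2:**
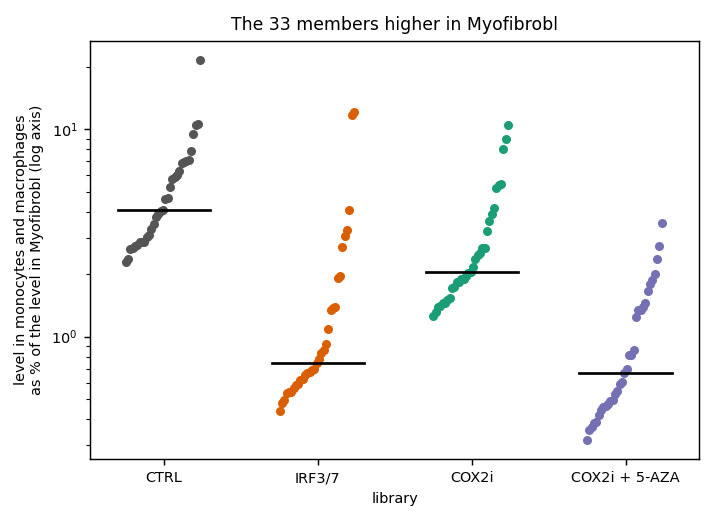
For each of the 33 members at least 2-fold higher in Myofibrobl, the level in monocytes and macrophages as a percent of the level in Myofibrobl (log axis) by library, each point 1 gene and each bar the median. Medians were 4.07%, 0.75%, 2.04% and 0.666% from left to right.

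Free RNA and doublets would add collagen UMIs to cells that make none. In NK cells, which should lack collagen, the 15 of these collagens with a mean of at least 100 CPM in Myofibrobl summed to 61.6 CPM in CTRL (2 UMIs in 11 cells), 50.3 in IRF3/7, 212 in COX2i (50 cells) and 110 in COX2i + 5-AZA. The same 15 genes summed to 686, 623 and 222 CPM in TAM_C1q of CTRL, COX2i and COX2i + 5-AZA, and to 141, 64.8, 199 and 59.5 CPM in cDC2 of the 4 libraries. In Infl_Mono, the inflammatory monocytes, they summed to 458, 86.1, 383 and 96.2 CPM. The levels thus differed between classes of 1 library, with TAM_C1q above NK cells in the 3 libraries where it had at least 10 cells. In COX2i + 5-AZA cDC2 (47.0 to 74.2) lay below NK cells (95.3 to 126). With each cell thinned to 2000 UMIs, Col1a2 had a UMI in 19.7%, 2.14%, 28.6% and 8.76% of monocytes and macrophages, and in 0 of 9, 1.22%, 9.68% and 4.47% of NK cells. The unthinned shares were 45.7%, 3.61%, 63.5% and 26.5%, and in NK cells 9.09%, 1.94%, 30.0% and 8.01%, at median depths of 3148 to 7611.5 UMIs for monocytes and macrophages and 2595 to 3099 for NK cells. The study's marker table, made from data that include these libraries and so no independent evidence, lists 16 Myofibrobl genes that are not members. In monocytes and macrophages all 16 were at least 2-fold lower in IRF3/7 than in CTRL (median log2 ratio -2.46, all genes -0.54) and 14 of 16 in COX2i + 5-AZA (-1.88, all genes -0.16), against 1 of 16 in COX2i. COX2i + 5-AZA against COX2i had 13 of 16 lower. In Myofibrobl 1 of 16 (Cald1) was lower in IRF3/7 and 0 of 16 in the other 3 comparisons, and 0 were higher in any. The part of free RNA, of doublets and of uptake in the low collagen levels was not tested.

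Over all cells of a library, the summed level of the 25 collagens depends on the share of UMIs that Myofibrobl gave and on the level within it. It was 2899 CPM (95% interval 2886 to 2912) in CTRL, 2495 (2476 to 2514) in IRF3/7, 4340 (4325 to 4355) in COX2i and 1126 (1119 to 1134) in COX2i + 5-AZA. COX2i was the highest and COX2i + 5-AZA the lowest, 3.85-fold below COX2i (log2 ratio -1.95, -1.96 to -1.94) and 2.57-fold below CTRL (-1.36, -1.38 to -1.35). The small difference of IRF3/7 from CTRL (-0.22, -0.23 to -0.20) changed sign with median-of-ratios scaling (0.062) and with cells of over 2000 genes (0.64). Myofibrobl cells held 83.0%, 96.8%, 89.4% and 85.3% of these collagen UMIs. Within Myofibrobl the sum was 16963 CPM in CTRL, 14193 in IRF3/7, 26101 in COX2i and 26036 in COX2i + 5-AZA. The library with the lowest collagen over all cells thus had a level in Myofibrobl close to the highest, with 160 such cells. It was 595, 104, 566 and 176 CPM in monocytes and macrophages, and without Myofibrobl the COX2i ratio to CTRL turned from 0.58 to -0.078. The 160 Myofibrobl cells of COX2i + 5-AZA had a median of 15211.5 UMIs against 15007.5 in the 554 of CTRL. Without Myofibrobl the sums were 573, 97.0, 543 and 172 CPM. The part of each in the lower sum was not tested, and a CD45 sort does not measure how many Myofibrobl cells a tumour held.

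In the pooled monocytes and macrophages, more members were at least 2-fold lower than higher in each comparison with CTRL. These comparisons share the CTRL library, so their counts are given side by side and not compared. A call means at least 2-fold with at least 50 UMIs over both libraries. In IRF3/7, 34 of 56 members were lower (60.7%, against 31.7% of all genes) and 5 higher (8.93%, against 8.67%). In COX2i, 11 of 60 were lower (18.3%, against 3.84%) and 2 higher (3.33%, against 1.63%). In COX2i + 5-AZA, 35 of 59 were lower (59.3%, against 10.3%) and 5 higher (8.47%, against 5.13%). Against COX2i rather than CTRL, COX2i + 5-AZA had 26 of 58 lower (44.8%, against 9.11%) and 7 higher (12.1%, against 5.54%). The median log2 ratio over the members counted was -1.45, -0.40, -1.37 and -0.88 in these 4 comparisons, and over all genes -0.54, 0.02, -0.16 and -0.19. Of the lower genes 25 of the 34, 5 of the 11, 29 of the 35 and 22 of the 26 were among the 33 described above. Those 33 are a large part of the 65 members, and their share of the members counted in each comparison was not computed. The lower genes outside the 33 were Adam10, Adam15, Adam22, Adam3, Adam4, Col14a1, Col7a1, Mmp14 and Timp2 in IRF3/7 and Adam22, Adam3, Adam4, Col14a1, Col7a1 and Timp2 in COX2i + 5-AZA. In COX2i they were Adam22, Adam3, Col20a1, Mmp19, Mmp27 and Mmp8. Col7a1 was over 2-fold higher in Myofibrobl in all 4 libraries and is outside the 33 because it had under 50 UMIs in IRF3/7 (11 and 33 in the 2 populations). The pooled cells fell into different classes: Monocyte_1 made up 3640 of 8801 in COX2i + 5-AZA and 44 of 7614 in CTRL. Within single classes, COX2i + 5-AZA against CTRL had 28 of 51 members lower and 4 higher in TAM_C1q (all genes 6.36% and 3.07%), 27 of 46 and 4 in TAM_cycling (6.0% and 3.9%), 22 of 37 and 4 in TAM_Spp1 (4.82% and 2.46%) and 7 of 19 and 2 in Infl_Mono (6.84% and 5.73%). Macro, with 73 and 105 cells, went the other way, with 1 of 12 lower and 2 higher (3.33% and 5.76%). In Infl_Mono of IRF3/7 16 of 28 were lower and 3 higher (13.7% and 6.84%).

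Among the collagenases, Mmp13, which cuts fibrillar collagen, was far higher in COX2i + 5-AZA. Its level in monocytes and macrophages was 14.4 CPM (13.4 to 15.4) in CTRL, 62.8 (59.2 to 66.6) in IRF3/7, 12.2 (11.3 to 13) in COX2i and 520 (515 to 526) in COX2i + 5-AZA. The last library stood above the other 3, with a log2 ratio of 5.18 (5.08 to 5.28) to CTRL, 36.2-fold, and 42.8-fold to COX2i. Within single classes of at least 50 cells the ratio to CTRL was 45.3-fold in TAM_C1q (14.9 against 674 CPM), 48.3-fold in TAM_cycling (11 against 534) and 24.3-fold in TAM_Spp1 (8.42 against 204). In Infl_Mono, where CTRL already stood at 240 CPM, it was 1.31-fold (240 against 313). Monocyte_1 held 26.7% of the Mmp13 UMIs of COX2i + 5-AZA, with 9676 of the 21094205 UMIs of its 3640 cells. In CTRL it had 44 cells, too few for a class ratio, with 27 Mmp13 UMIs of 204648. The part of this class in the pooled ratio was not tested. The IRF3/7 library was 4.37-fold above CTRL in the pooled cells and 5.14-fold below it in Infl_Mono (46.6 against 240 CPM, log2 ratio -2.36, -2.65 to -2.07), the 1 class with at least 50 cells in both. Infl_Mono made up 4335 of 5035 such cells in IRF3/7 and 93 of 7614 in CTRL, so the direction of Mmp13 in IRF3/7 depended on whether classes were pooled. With each cell thinned to 2000 UMIs, 27.8% of monocytes and macrophages in COX2i + 5-AZA had an Mmp13 UMI, against 1.47% to 6.08% in the other 3 libraries (unthinned 41.8%, against 3.43% to 8.0%). In NK cells of COX2i + 5-AZA, which should lack it, the share was 7.9% (unthinned 15.1%) and the level 68.6 CPM.

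Mmp12, the elastin-cutting metalloelastase of macrophages, was also highest in COX2i + 5-AZA. The level in monocytes and macrophages was 41.9 CPM (40.2 to 43.7) in CTRL, 24.9 (22.7 to 27.3) in IRF3/7, 67.2 (65.2 to 69.3) in COX2i and 648 (642 to 654) in COX2i + 5-AZA, a log2 ratio of 3.95 (3.89 to 4.01) to CTRL, 15.4-fold, and 9.64-fold to COX2i. The ratio to CTRL was 14.8-fold in TAM_Spp1 (134 against 1982 CPM), 30.3-fold in TAM_C1q (14.6 against 442), 17.4-fold in TAM_cycling (28.4 against 492) and 3.37-fold in Infl_Mono (49.6 against 167). The order of the classes differed from that of Mmp13: TAM_Spp1 had the highest Mmp12 and the lowest Mmp13 of these macrophage classes. Outside them, cDC2, a dendritic cell class, stood at 311 CPM in CTRL, 31.3 in IRF3/7, 330 in COX2i and 771 in COX2i + 5-AZA, and NK cells of the last library at 146. Monocyte_1 held 36.9% of the Mmp12 UMIs of COX2i + 5-AZA, with 16971 of the 21094205 UMIs of its 3640 cells. In CTRL it had 44 cells, too few for a class ratio, with 75 Mmp12 UMIs of 204648. The part of this class in the pooled Mmp12 ratio was not tested. Mmp12 had a UMI in 29.3% of thinned monocytes and macrophages of COX2i + 5-AZA against 1.82% to 5.08% in the other 3, and in 10.7% of its NK cells (unthinned 41.9%, against 2.48% to 8.81%, and 15.1%).

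A small share of cells held most UMIs of both genes. In COX2i + 5-AZA the 10% of monocytes and macrophages with the most UMIs of the gene held 73.9% of Mmp13 and 75.0% of Mmp12, with up to 454 and 545 UMIs in 1 cell, and in each of the other 3 libraries they held 100%, since fewer than 10% of cells had a UMI. For Mmp14 and Timp2 the shares in COX2i + 5-AZA were 36.6% and 61.8%. After thinning, 904 of 8309 cells had both genes, and Mmp13 was found in 37.2% of cells with Mmp12 and in 24% of the others. The shares were 60.9% against 31.3% in TAM_C1q, 76.9% against 45.0% in TAM_H2Ab1 and 18.5% against 15.2% in TAM_Spp1. These are cells of 1 library and are given as a description.

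**Figure D3:**
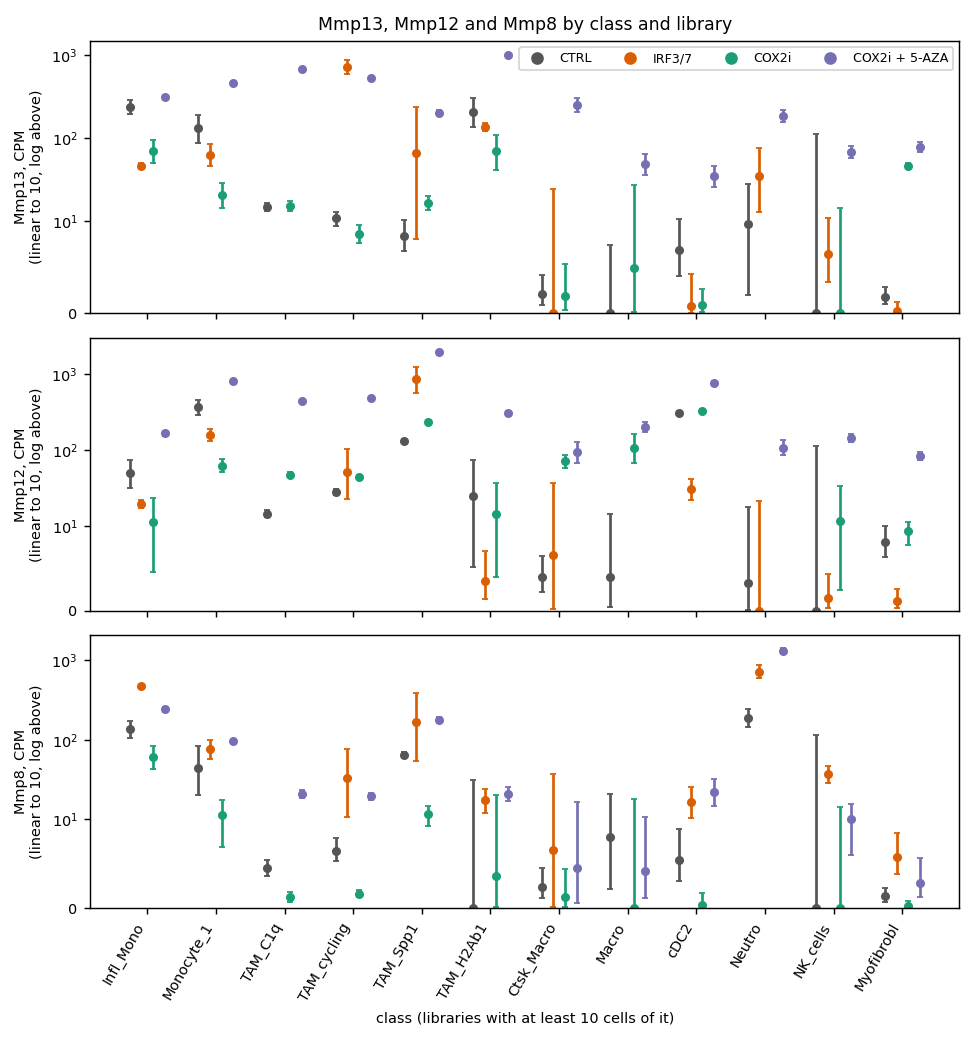
Level in CPM of Mmp13, Mmp12 and Mmp8 by class and library, for classes with at least 10 cells, on an axis that is linear to 10 and logarithmic above; points are sums over cells and bars exact 95% Poisson intervals. For Mmp13 and Mmp12 the COX2i + 5-AZA points lie above the CTRL points in the macrophage classes, and for Mmp13 in Infl_Mono the IRF3/7 point (46.6) lies below the CTRL point (240).

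Mmp8, the collagenase that neutrophils store, was highest in the IRF3/7 library. Its level in monocytes and macrophages was 17.5 CPM (16.5 to 18.7) in CTRL, 400 (391 to 410) in IRF3/7, 3.42 (2.98 to 3.91) in COX2i and 67.7 (65.8 to 69.7) in COX2i + 5-AZA. IRF3/7 was 22.8-fold above CTRL and COX2i 5.13-fold below, and the 4 intervals did not overlap. Within Infl_Mono the levels were 136, 478, 60.6 and 239 CPM, so IRF3/7 was 3.51-fold above CTRL there, and in TAM_Spp1 COX2i was 5.49-fold below CTRL (11.7 against 64.2). Infl_Mono carried 95.1% of the Mmp8 UMIs of the IRF3/7 library and TAM_Spp1 63.5% of those of CTRL. The neutrophil class stood at 188 CPM in CTRL, 717 in IRF3/7 and 1312 in COX2i + 5-AZA. Of 4 neutrophil markers (S100a8, S100a9, Csf3r, Cxcr2) all had values in monocytes and macrophages and summed to 134, 1209, 48.6 and 549 CPM in the 4 libraries, and Cxcr2 was at 0.24 to 10.4 CPM. Their part in the Mmp8 levels was not tested. The other lists summed in these cells to 14898 to 17512 CPM (immune), 83.6 to 440 (fibroblast), 245 to 308 (melanocyte and melanoma), 17.7 to 134 (endothelial), 1.46 to 26.9 (pericyte), 7.56 to 49.0 (keratinocyte), 5.82 to 15.8 (dendritic cell), 0.22 to 7.00 (NK cell) and 2.18 to 7.08 (mast cell).

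The membrane-type metalloproteinase Mmp25 and the Mmp19 gene followed other patterns. Mmp25 stood at 2.56 CPM (2.15 to 3.02), 45.4 (42.3 to 48.7), 7.26 (6.61 to 7.96) and 30.9 (29.6 to 32.2) in monocytes and macrophages, lowest in CTRL. Its level was highest in the DC3 class, with 1660, 1428, 2046 and 1417 CPM and 19.1% to 27% of all Mmp25 UMIs, where the interval of CTRL overlapped those of the other 3 libraries. Infl_Mono held 54.4% of the Mmp25 UMIs in IRF3/7 and Monocyte_1 35.5% in COX2i + 5-AZA. Infl_Mono had 684 Mmp25 UMIs of 14728501 UMIs in IRF3/7 and 9 of 484222 in CTRL. TAM_H2Ab1 had 89 of 2023164 in IRF3/7 and 19 of 119538 in the 19 cells of CTRL. CTRL was thus not the lowest in every class. Mmp19 stood at 237, 352, 106 and 214 CPM, 2.23-fold lower in COX2i than in CTRL and 2.01-fold higher in COX2i + 5-AZA than in COX2i. Mmp14, the membrane-anchored enzyme that cuts collagen at the cell surface and activates pro-Mmp2, differed less: 583, 288, 526 and 519 CPM, with 2.03-fold less in IRF3/7 and 1.89-fold less within its Infl_Mono (241 against 456). It was highest in Ctsk_Macro, at 1620, 1235, 1162 and 1223 CPM.

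The inhibitors followed other orders of the libraries than the collagenases. Timp2, which binds Mmp14 and Mmp2, stood in monocytes and macrophages at 603 CPM (597 to 610) in CTRL, 55.4 (52.0 to 58.9) in IRF3/7, 362 (357 to 367) in COX2i and 233 (229 to 237) in COX2i + 5-AZA. IRF3/7 was the lowest, 10.9-fold below CTRL and 14.5-fold below it within Infl_Mono (29.3 against 425 CPM). COX2i + 5-AZA was 2.59-fold below CTRL in the pooled cells and 1.43-fold below within TAM_C1q (503 against 718), 1.96-fold within TAM_cycling (283 against 555) and 5.53-fold within Infl_Mono (76.9 against 425). Thinned cells had a Timp2 UMI in 47.8%, 6.67%, 35.8% and 21.4% of cases (unthinned 69.4%, 10.7%, 61.4% and 40.6%), and NK cells in 0 of 9, 4.16%, 3.23% and 8.25% (unthinned 18.2%, 6.51%, 10.0% and 13.5%). Timp1, the secreted inhibitor induced by many cytokines, stood at 67.0, 29.1, 71.4 and 20.8 CPM. In cDC2 it fell into a high pair and a low pair of libraries: 263 and 238 CPM in CTRL and COX2i, and 48.1 and 48.8 in IRF3/7 and COX2i + 5-AZA. The plot of these genes shows Timp2 and the collagenases in different orders of the 4 libraries.

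**Figure D4:**
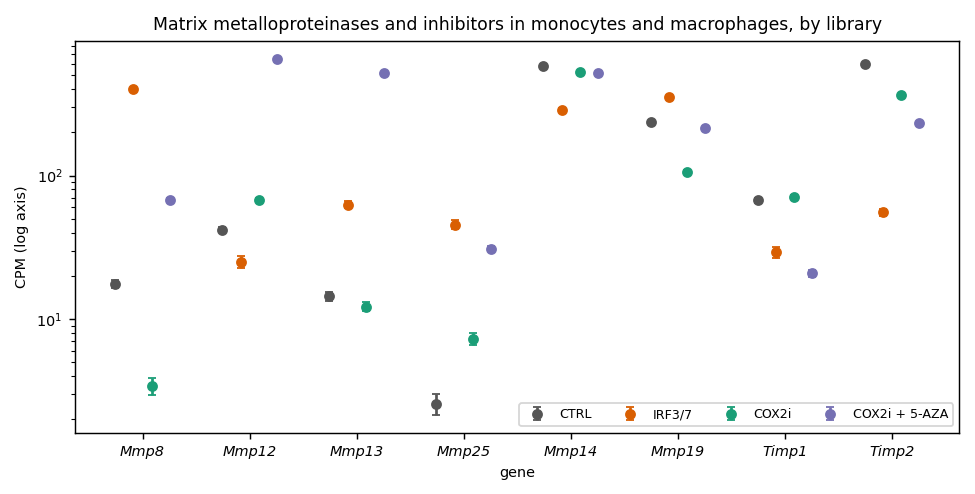
Level in CPM (log axis) of 6 metalloproteinases and 2 TIMPs in monocytes and macrophages of the 4 libraries; bars are exact 95% Poisson intervals. Mmp13 and Mmp12 are highest in COX2i + 5-AZA (520 and 648), Mmp8 in IRF3/7 (400) and Timp2 in CTRL (603).

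Among ADAM proteases in monocytes and macrophages, the sheddases of cytokine and Notch precursors differed less than the collagenases. Adam17, the TNF convertase, stood at 213, 192, 227 and 222 CPM, and Adam8 at 568, 412, 529 and 625, both under 2-fold in every comparison. Adam9 stood at 506, 304, 465 and 360 CPM. Adam10 (199, 67.0, 231 and 167) was 2.97-fold lower in IRF3/7 than in CTRL and 2.79-fold lower within Infl_Mono (64.5 against 180). Adam15 (382, 122, 498 and 326) was 3.12-fold lower pooled and 1.98-fold within Infl_Mono (120 against 237), under the 2-fold used for a call.

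The 5 collagens not highest in Myofibrobl were Col11a2, Col14a1, Col15a1, Col20a1 and Col9a3. Col14a1, a fibril-associated collagen, was found in macrophages, with 30.1 CPM (28.6 to 31.5) in CTRL, 0.336 (0.123 to 0.731; 6 UMIs) in IRF3/7, 61.9 (59.9 to 63.8) in COX2i and 10.2 (9.43 to 11) in COX2i + 5-AZA. With cells thinned to 2000 UMIs, 4.16%, 0.0246%, 9.58% and 1.23% of monocytes and macrophages had a Col14a1 UMI (unthinned 13.8%, 0.0794%, 29.7% and 5.94%), and 0 of 9, 0 of 409, 0 of 31 and 1 of 291 NK cells (unthinned 0%, 0%, 4.0% and 0.686%). TAM_C1q carried 32.1, 72.9 and 23.5 CPM in CTRL, COX2i and COX2i + 5-AZA, and TAM_cycling 51.9, 73.2 and 17.4. TAM_C1q and TAM_cycling held 44.9% and 48.9% of the Col14a1 UMIs of CTRL, in 3199 and 1457 cells. In IRF3/7 they had 7 and 20 cells, under the 50 needed for a comparison within a class. The difference between COX2i + 5-AZA and CTRL was 1.36-fold in TAM_C1q and 2.98-fold in TAM_cycling, both lower. Col27a1, a fibrillar collagen that was highest in Myofibrobl, stood at 35.9, 2.18, 15.7 and 3.04 CPM in monocytes and macrophages while its level in Myofibrobl was 166, 158, 175 and 170. Col9a3 was 8.87-fold higher in IRF3/7 than in CTRL at very low levels (6.33 against 0.713 CPM, 113 and 39 UMIs).

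Some members were highest in other immune classes. Loxl2, a lysyl oxidase, was highest in mast cells, with 424 CPM in CTRL (38 cells), 378 in COX2i (13) and 329 in COX2i + 5-AZA (23), against 10.6 to 36.9 CPM in Myofibrobl. Mast cells of CTRL also carried Col18a1, a basement membrane collagen, at 361 CPM and Col15a1, its close relative, at 72.2. Adamts14, which removes the amino propeptide of procollagen, stood at 271 CPM in NK cells of IRF3/7 (568 cells) and 254 in those of COX2i + 5-AZA (437), with overlapping intervals (249 to 295 and 232 to 278), and its class mean in NK cells (279) was close to that in Myofibrobl (259). Adam23, an ADAM without protease activity, stood in DC3 at 250, 52.9, 272 and 177 CPM from 11 to 71 UMIs. Adam19 was highest in cDC1, at 135, 148, 102 and 157 CPM, where the 4 intervals overlapped, and its class mean there (136) was close to that in DC3 (128).

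Within Myofibrobl, members were called in both directions in IRF3/7 and, against CTRL, upward alone in the drug-treated libraries. In IRF3/7, 10 of 50 were higher (20.0%, against 5.33% of all genes) and 11 lower (22.0%, against 11%); with median-of-ratios scaling the split was 10 to 6, and the median log2 ratio of all genes moved from -0.29 to -0.01. In COX2i, 8 of 54 were higher (14.8%, against 3.55%) and 0 lower (against 0.914%). In COX2i + 5-AZA, 16 of 52 were higher than in CTRL (30.8%, against 4.17%) and 0 lower (against 1.49%). Against COX2i, COX2i + 5-AZA had 5 of 54 higher (9.26%, against 2.2%) and 3 lower (5.56%, against 1.76%). The median log2 ratio over the members counted was -0.12, 0.38, 0.60 and 0.12 in these 4 comparisons. Marker lists in this class differed between libraries too, the fibroblast list given above among them, which was highest in IRF3/7. Of 5 pericyte and smooth muscle markers 2 had values, nearly all Cspg4, and summed to 449, 202, 179 and 185 CPM. Of 7 endothelial markers 5 had values and summed to 18.9, 10.7, 83.3 and 84.2 CPM. Of 7 immune markers 6 had values and summed to 1188, 331, 1449 and 1070. All 4 neutrophil markers had values (207, 332, 9.83 and 46.2 CPM), as had all 7 osteoclast markers (261, 191, 171 and 137). Keratinocyte markers (2 of 4 with values) summed to 6.12 to 23.2 CPM, dendritic cell markers (6 of 6) to 2.45 to 11.9, NK cell markers (4 of 4) to 0.519 to 4.26 and mast cell markers (4 of 4) to 1.56 to 7.46. Their part in the results for Myofibrobl was not tested.

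Of the 9 fibrillar collagens 8 had at least 50 UMIs in the comparisons with CTRL within Myofibrobl. In IRF3/7 Col5a3 was called higher and Col11a1, Col1a2 and Col5a2 lower, in COX2i Col11a1 and Col1a2 higher, and in COX2i + 5-AZA Col11a1, Col1a1, Col3a1 and Col5a3 higher, while Col5a1 (414, 360, 590 and 717 CPM) and Col27a1 were called in none of the 3. Col1a1 stood at 1845 CPM (1818 to 1872) in CTRL, 1691 (1653 to 1730) in IRF3/7, 3155 (3123 to 3187) in COX2i and 5257 (5173 to 5343) in COX2i + 5-AZA. Its partner chain Col1a2 stood at 4772 (4729 to 4816), 1983 (1942 to 2024), 9669 (9612 to 9725) and 6197 (6106 to 6290). The chains of type I collagen thus did not keep 1 order: Col1a1 was highest in COX2i + 5-AZA and Col1a2 in COX2i. Against CTRL, Col1a2 was 2.41-fold lower in IRF3/7 and 2.03-fold higher in COX2i. Col3a1, the type III collagen of loose tissue, stood at 2630, 2282, 5107 and 5610 CPM, 2.13-fold higher in COX2i + 5-AZA than in CTRL. Col5a2 and Col5a3, minor chains that set fibril diameter, differed in direction in IRF3/7: Col5a2 was 210, 83.9, 320 and 364 CPM and Col5a3 77.0, 296, 51.0 and 154.

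Of the 7 network and beaded filament collagens, 5 (Col4a1, Col4a2, Col6a1, Col6a2 and Col6a3) were under 2-fold in all 4 comparisons. Most genes were under 2-fold in each, with 5.33%, 3.55%, 4.17% and 2.2% of all genes higher. The shares lower were 11%, 0.914%, 1.49% and 1.76%, and genes under 2-fold in all 4 were not counted. Col4a5 was lower in IRF3/7 and in COX2i + 5-AZA against COX2i, and Col8a1 was higher than in CTRL in IRF3/7 and in COX2i + 5-AZA. Col6a3, a chain of type VI collagen, stood at 2326, 2511, 2350 and 2567 CPM, with log2 ratios to CTRL of 0.11, 0.01 and 0.14. Col18a1, a multiplexin, stood at 2287, 2386, 2034 and 1872 CPM. Col4a1, of basement membranes, stood at 264, 242, 455 and 439 CPM, under 2-fold in every comparison. Col7a1, the anchoring fibril collagen of skin, was 90.7 CPM (84.8 to 96.9) in CTRL and 7.36 (5.07 to 10.3) in IRF3/7, 12.3-fold lower, against 135 and 177 in the drug-treated libraries. Col15a1 was 4.36, 0.669, 26.3 and 34.5 CPM, 6.04-fold and 7.91-fold above CTRL in the latter. Its CTRL level rests on 42 UMIs, 16 of them from 1 cell. Col12a1, which coats collagen fibrils, stood at 50.6, 77.2, 58.0 and 216 CPM, 4.26-fold above CTRL in COX2i + 5-AZA.

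Of the 4 lysyl oxidases, which cross-link these chains, 2 were called higher in IRF3/7 (Lox and Loxl1), 2 in COX2i + 5-AZA (Lox and Loxl2) and 0 in COX2i, where 5.33%, 4.17% and 3.55% of all genes were higher. Lox stood at 63.9 CPM (59.0 to 69.2), 196 (184 to 210), 84.4 (79.2 to 89.8) and 183 (167 to 199), 3.07-fold above CTRL in IRF3/7 and 2.86-fold in COX2i + 5-AZA. Loxl1 stood at 125, 335, 145 and 189 CPM, past 2-fold in IRF3/7 alone (2.67-fold). Loxl2 was 10.6, 12.5, 16.4 and 36.9 CPM, 3.49-fold above CTRL in COX2i + 5-AZA, and Loxl3 85.1, 67.3, 129 and 130, under 2-fold in each comparison with CTRL.

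Inhibitors and proteases of Myofibrobl differed in direction in IRF3/7. Timp1 stood at 971 CPM (951 to 991) in CTRL and 2124 (2081 to 2167) in IRF3/7, 2.19-fold higher, against 687 and 763 in the drug-treated libraries. Timp3, which binds the matrix itself, stood at 183, 55.8, 169 and 183 CPM, 3.29-fold lower in IRF3/7. Timp2 stood at 733, 761, 591 and 660 CPM, so the low Timp2 of IRF3/7 monocytes was not found in this class. Mmp19, like Timp1, was higher in IRF3/7, at 288 CPM against 52.1 (5.53-fold), and Adamts1, which cuts proteoglycans, stood at 113, 328, 200 and 225 CPM. Mmp11, a stromelysin, was 62.1 CPM in CTRL and 20.5 in IRF3/7, 3.02-fold lower. Mmp2, the gelatinase of fibroblasts, stood at 414, 357, 686 and 682 CPM, under 2-fold in every comparison. Mmp3, a stromelysin, stood at 12.8, 29.9, 27.7 and 50.8 CPM, lowest in CTRL.

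Mmp13 and Mmp12 differed in Myofibrobl too, on few cells. Mmp13 was 1.76 CPM (17 UMIs) in CTRL, 0.223 (1 UMI) in IRF3/7, 46.7 (546 UMIs) in COX2i and 78.9 (222 UMIs) in COX2i + 5-AZA. In COX2i 30 of 913 cells had a UMI of it and 1 cell held 48.7% of the UMIs, and in COX2i + 5-AZA 1 cell held 35.6%. Mmp12 was 8.09, 1.12, 9.49 and 83.8 CPM, with 1 cell holding 41.9% in COX2i + 5-AZA. In COX2i + 5-AZA the interval of Mmp13 (68.8 to 89.9) overlapped that of its NK cells (57.3 to 81.4), and Mmp12 (73.5 to 95.2) lay below its NK cells (129 to 164).

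**Figure D5:**
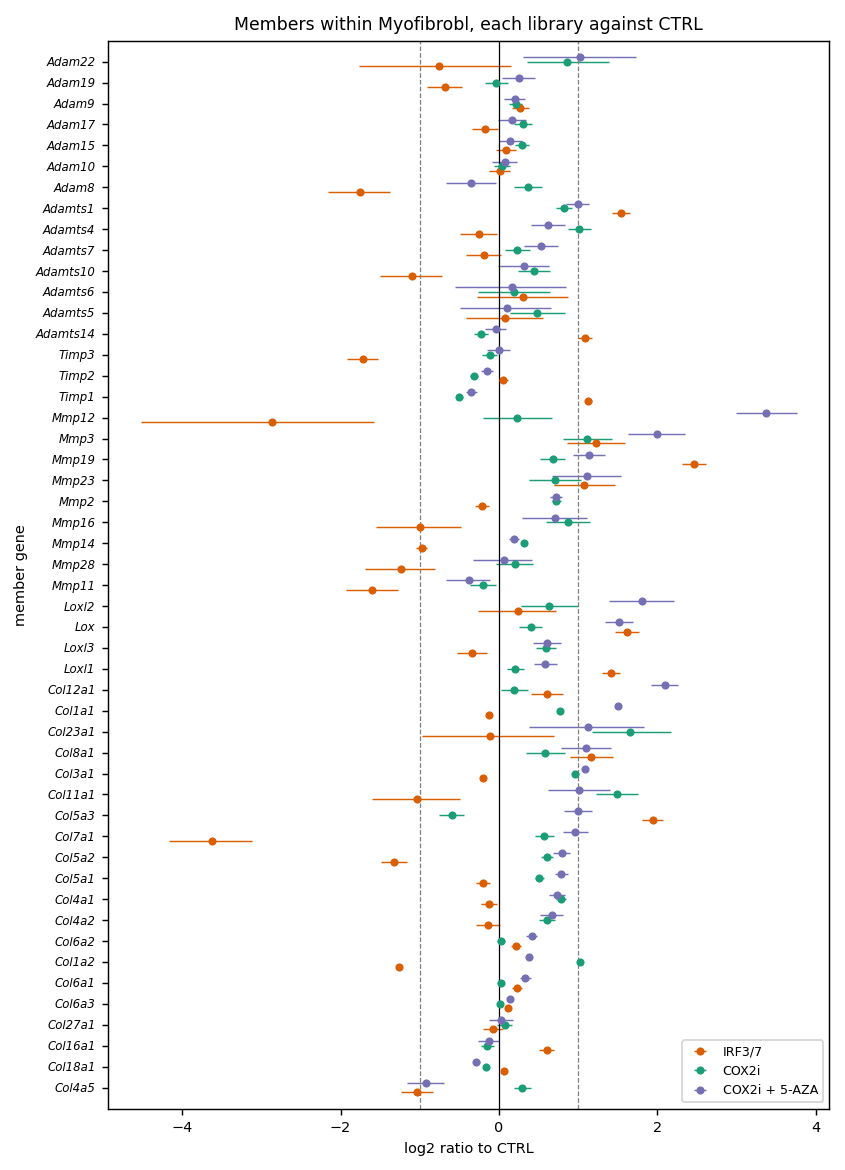
Log2 ratio to CTRL within Myofibrobl of the 50 members with at least 50 UMIs in each of the 3 comparisons, one colour per library; bars are exact conditional 95% intervals and dashed lines mark 2-fold. Members of COX2i + 5-AZA lie to the right of the left dashed line throughout, while IRF3/7 has members beyond both lines.

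Genes that act with the members were counted from fixed lists. Of 28 genes for collagen synthesis and folding 25 had values. In Myofibrobl 2 of 25 were higher in IRF3/7 (Pcolce and Pcolce2, which enhance procollagen trimming) and 2 lower (Plod2 and Creb3l1), 1 of 25 higher and 2 lower in COX2i, 0 higher and 1 of 24 lower in COX2i + 5-AZA, and 0 of 24 against COX2i, with medians of -0.12, 0.14, 0.21 and 0.09 (all genes -0.29, 0.04, -0.04 and -0.05). Among monocytes and macrophages 14 of 23, 1 of 24, 8 of 23 and 6 of 23 were lower and 0 higher in the same 4 comparisons, where 31.7%, 3.84%, 10.3% and 9.11% of all genes were lower. Serpinh1, the collagen chaperone, stood there at 35.4 CPM in CTRL, 8.96 in IRF3/7 and 12.6 in COX2i + 5-AZA.

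Of 41 other matrix proteins 36 had values. In Myofibrobl of IRF3/7 7 of 30 were higher and 4 lower (median 0.3), in COX2i 7 of 34 higher and 0 lower (0.47), in COX2i + 5-AZA 10 of 31 higher and 1 lower (0.55), and against COX2i 6 of 34 higher and 1 lower (0.065). Of all genes 5.33%, 3.55%, 4.17% and 2.2% were higher and 11%, 0.914%, 1.49% and 1.76% lower in these comparisons, with medians of -0.29, 0.04, -0.04 and -0.05. Thbs1, an activator of TGF-beta, was 301 CPM in CTRL and 3625 in IRF3/7. Tnc, a matrix protein of wounds, was 185 and 1754, while Fn1, fibronectin, was 8976 and 1285. Postn, periostin, was 56.7 CPM in CTRL, 6.24 in IRF3/7, 313 in COX2i and 587 in COX2i + 5-AZA. Among monocytes and macrophages 16 of 26 were lower and 4 higher in IRF3/7, 4 of 27 and 0 in COX2i, 15 of 27 and 0 in COX2i + 5-AZA, and 12 of 26 and 1 against COX2i, where 31.7%, 3.84%, 10.3% and 9.11% of all genes were lower and 8.67%, 1.63%, 5.13% and 5.54% higher. Their medians were -1.42, -0.16, -1.43 and -0.86 (all genes -0.54, 0.02, -0.16 and -0.19).

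Of 15 collagen receptors and uptake genes 14 had values. In monocytes and macrophages 9 of 13 were lower and 0 higher in IRF3/7, 2 and 0 in COX2i, 6 and 2 in COX2i + 5-AZA, and 3 and 1 against COX2i, beside the same shares of all genes. Mrc1, a receptor that takes up collagen fragments, stood there at 2550 CPM in CTRL and 120 in IRF3/7, and Lair1, an inhibitory collagen receptor, at 213 in CTRL and 460 in COX2i + 5-AZA. In Myofibrobl 0 of 12 were higher and 2 lower in IRF3/7, 2 of 13 and 1 in COX2i, 4 of 13 and 1 in COX2i + 5-AZA, and 1 of 13 and 0 against COX2i, beside the shares of all genes in Myofibrobl given for the matrix proteins (in IRF3/7, 5.33% higher and 11% lower). Of 21 other matrix proteases and inhibitors 19 had values. In monocytes and macrophages 3 of 18 were higher and 7 lower in IRF3/7, 1 of 19 and 5 in COX2i, 1 and 5 in COX2i + 5-AZA, and 2 and 3 against COX2i. The 7 of 18 lower in IRF3/7 stand beside 31.7% of all genes, and the 5 of 19 in COX2i and in COX2i + 5-AZA beside 3.84% and 10.3%. Mmp9, the gelatinase, stood there at 1922, 86.6, 485 and 154 CPM, and Ctsk, the collagen-cutting cathepsin, at 1973, 94.9, 590 and 150, both highest in CTRL, while Slpi, a protease inhibitor, stood at 40.2 in CTRL and 452 in IRF3/7. In Myofibrobl 2 of 19 of this list were higher and 3 lower in IRF3/7, 2 and 2 in COX2i, 3 and 0 in COX2i + 5-AZA, and 4 and 0 against COX2i, beside 5.33% and 11%, 3.55% and 0.914%, 4.17% and 1.49%, and 2.2% and 1.76% of all genes. The 7 osteoclast markers, which include Ctsk, summed to 3896, 596, 1209 and 679 CPM in monocytes and macrophages, and their part in these levels was not tested. The levels of Mrc1, Lair1, Mmp9, Ctsk and Slpi are for pooled cells and were not compared within classes. In the order CTRL, IRF3/7, COX2i, COX2i + 5-AZA, Ctsk_Macro had 380, 13, 157 and 37 cells and Infl_Mono 93, 4335, 130 and 764.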

How the data were processed

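The authors fixed the sorted cells for 22 h, ran the Chromium Flex probe assay and counted with Cell Ranger 7.1.0 on mm10. They deposited UMI counts per gene and cell, after removing ribosomal and mitochondrial genes and, as stated, cells without over 1000 genes (1201 deposited cells had no more), and a table naming each cell's class. They named classes by clustering after integration with Harmony. The count tables held 12584 genes and 34447 cells, and each cell's total matched the cell table.

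UMI counts were summed per library and class and scaled to total UMIs (CPM). Monocytes and macrophages were Infl_Mono, Monocyte_1, Monocyte_3, TAM_C1q, TAM_Spp1, TAM_cycling, TAM_H2Ab1, Ctsk_Macro and Macro. With 1 library per group, intervals are exact Poisson or exact conditional at 95%. A call needs 2-fold and 50 UMIs over both libraries. A count of 0 was set to 3 counts per library in ratios. Ratios were computed for all genes. Named members had 1000 UMIs over the 4 libraries, or were among the 5 largest rises or falls of a comparison in either population or in a class of 50 cells, with 50 UMIs. The members, gene lists (Myofibrobl genes of the study's marker table that are not members, collagen synthesis, other matrix proteins, receptors, other proteases, cell type markers) and tests were chosen with earlier results of these data known. The Myofibrobl list was picked by the study from data that include these libraries, and shares Serpinh1, Sparc and Lamb1 with other lists. The scripts were tested on simulated counts. Alternatives were size factors, UMI minimums of 20 and 200, cells over 2000 genes, thinned sums, cells without the 5% highest in non-immune genes, and equal class weights. Coordinates are from GENCODE, promoters from RefSeq. A further motif searched there is not reported here. Tools were Python 3.11.15, numpy 2.4.6, scipy 1.17.1, pandas 2.3.3 and matplotlib 3.10.9.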

Additional observations from a re-analysis of the deposited data

Results flagged for a closer look

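For 12 results a named member was at least 2-fold higher in Myofibrobl and at least 2-fold lower in monocytes and macrophages of the same comparison. The share of all genes called in both of these ways was not computed. In COX2i + 5-AZA 4.17% of all genes were higher in Myofibrobl and 10.3% lower in monocytes and macrophages. In IRF3/7 these shares were 5.33% and 31.7%. Adam22 had 456 UMIs over all libraries. The difference between the populations was not tested, since each is 1 sum per library. In COX2i + 5-AZA against CTRL, the difference of the log2 ratios, Myofibrobl minus monocytes and macrophages, was 4.88 for Adam22 (1.03 and -3.85), 4.32 for Loxl2 (1.80 and -2.52), 4.02 for Col12a1 (2.09 and -1.93), 3.09 for Col1a1 (1.51 and -1.58) and 3.09 for Col8a1 (1.11 and -1.99). It was 2.97 for Col5a3 (1.00 and -1.97), 2.74 for Lox (1.52 and -1.22) and 2.41 for Col3a1 (1.09 and -1.32).

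In IRF3/7 against CTRL the difference was 3.51 for Col5a3 (1.94 and -1.57), 3.18 for Adamts14 (1.09 and -2.09), 2.49 for Loxl1 (1.41 and -1.08) and 2.33 for Timp1 (1.13 and -1.20).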

How the results depend on the processing

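No paired analysis was possible because each group has 1 library and the groups share fewer than 2 replicate numbers, and no library could be left out. The number of members higher in monocytes and macrophages of IRF3/7 was 3 instead of 5 with at least 200 UMIs, and in COX2i 1 instead of 2 with cells over 2000 genes and 1 with thinned sums. In Myofibrobl the number lower in IRF3/7 was 6 instead of 11 with median-of-ratios size factors, and lower in COX2i + 5-AZA against COX2i 1 instead of 3 with at least 200 UMIs and 1 with thinned sums. The other counts of members, the 33 higher in Myofibrobl included, stayed within 1.5 times under the alternatives run. The log2 ratio of summed collagens over all cells in IRF3/7 (-0.22) turned to 0.062 with size factors and 0.64 with cells over 2000 genes, and was -2.56 without Myofibrobl. In COX2i (0.58) it was -0.078 without Myofibrobl, 0.56 with size factors and 0.53 with cells over 2000 genes. In COX2i + 5-AZA it was -1.74 without Myofibrobl and -1.20 with size factors, against -1.36, and compared with COX2i -1.66, -1.75 and, with cells over 2000 genes, -1.89, against -1.95. Leaving out Myofibrobl removes 83.0% to 96.8% of the collagen UMIs, and the cause of the other changes was not tested. Mmp13 in IRF3/7 turned from 2.13 to -2.37 with classes weighted equally, where Infl_Mono alone has 50 cells in both libraries. Of single ratios of named members, 107 of 214 moved beyond their interval with equal class weights, 108 of 412 with size factors, 52 of 412 with thinned sums, 37 of 412 with cells over 2000 genes and 9 of 214 without the 5% of cells highest in non-immune genes. In monocytes and macrophages size factors moved the median of all genes in IRF3/7 from -0.54 to -0.14. Depth limits IRF3/7 most, with 17857479 UMIs in these cells against 54663742 to 68432495, and Myofibrobl of COX2i + 5-AZA, with 160 cells.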
